A study of Mus musculus with 6 samples.

Results

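Hepatic mRNA levels of the 9 enzymes that carry squalene synthesis and the later steps to cholesterol were examined in livers of mice with normal or reduced PAI-1, the inhibitor of the plasminogen activators. The enzymes, *Fdft1*, *Sqle*, *Lss*, *Cyp51*, *Msmo1*, *Nsdhl*, *Ebp*, *Sc5d* and *Dhcr7*, were chosen by gene symbol and make up 9 of the 24421 genes in the deposited table of results. The study sequenced liver mRNA from 3 WT mice and 3 PAI-1 heterozygous mice, which carry 1 disrupted *Pai-1* allele in every tissue. All were of strain C57BL/6 per the labels (C57BL/6 J in the study's text) and ate standard chow freely. All were 21 weeks old per the labels, and the study's text gives a slightly lower age. The study describes the WT mice as littermates and the heterozygous mice as offspring of *Pai-1*-/- and WT parents. The labels state the sex only for the WT mice, and the study describes the heterozygous mice as males too. The value used here is the mean normalized count, the authors' mean over all libraries of the counts divided by size factors (DESeq2's base mean, by its column name), with WT and PAI-1 heterozygous livers pooled. The genotypes are therefore not compared here: the 6 columns of counts per animal carry headings that match no sample label, and the authors' own fold changes and p-values were not used. No values per mouse or SDs were used, so an order of levels below describes the pooled mean, and no neighbouring pair in it can be said to differ beyond the spread between mice. A gene that differs between the genotypes has a mean that lies between their levels.

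Cholesterol is built in the liver from acetyl-CoA. The mevalonate pathway supplies farnesyl diphosphate, squalene synthase joins farnesyl units into squalene, the first molecule committed to sterols, and the enzymes that follow close the rings, remove methyl groups and shift double bonds until cholesterol is formed. Transcription of these genes is controlled by SREBP factors, which bind sterol regulatory elements beside the cofactors NF-Y and Sp1 when sterols in the endoplasmic reticulum are low. SCAP carries SREBPs to the Golgi for cleavage, and INSIG proteins hold SCAP back when sterols are abundant.

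The promoters of the enzymes were read from RefSeq windows of 300 bases, 250 before the transcription start and 50 after it, on build GRCm38.p6. Windows were matched by symbol for 7 of the 9 enzymes, all but *Fdft1* and *Sqle*. *Dhcr7* has 3 annotated starts and the other 6 enzymes have 1 each. The CCAAT box, the letters CCAAT that NF-Y is known to bind, was present on either strand in a window of 7 of 7 enzymes, against 42.7% of 9913 genes with a mean above 10 and 37.4% of all 32851 windows. *Dhcr7* counts as holding it although only the window of start 3 does. The surroundings of the box are shown because every one of the 7 enzymes has it. The sequences are those of all 12 boxes that lie before the start, read on the strand on which the box is CCAAT, with the box in capitals and 12 bases on each side.

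*Lss*, 62 bases before the start, chr10:76531531-76531559, minus strand: atgcgagctcggCCAATcagagcatcacc
*Cyp51*, 29 bases before the start, chr5:4104710-4104738, minus strand: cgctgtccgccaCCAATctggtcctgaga
*Msmo1*, 160 bases before the start, chr8:64733722-64733750, minus strand: ccatccgcgcagCCAATgactggcgccgc
*Msmo1*, 96 bases before the start, chr8:64733658-64733686, minus strand: ccttagcacggaCCAATcactgcacggcg
*Msmo1*, 55 bases before the start, chr8:64733617-64733645, minus strand: gagtggggcggaCCAATtacgacaggcga
*Nsdhl*, 109 bases before the start, chrX:72918400-72918428, minus strand: ttcgttcccaaaCCAATgggaagcgggct
*Nsdhl*, 20 bases before the start, chrX:72918489-72918517, minus strand: gcatgattttgcCCAATgaggctagtctt
*Ebp*, 170 bases before the start, chrX:8193666-8193694, plus strand: tagactcattagCCAATcacagaccatgt
*Ebp*, 55 bases before the start, chrX:8193551-8193579, plus strand: gaatctgacgaaCCAATcagtacagggat
*Sc5d*, 24 bases before the start, chr9:42264308-42264336, plus strand: gcaggcagccggCCAATcagcagccggcg
*Dhcr7*, start 3, 85 bases before it, chr7:143830117-143830145, plus strand: tcactgccttcaCCAATcacaggacgcag
*Dhcr7*, start 3, 49 bases before it, chr7:143830153-143830181, minus strand: ggtcacagacgaCCAATcggaagtggatt

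These boxes lay between 20 and 170 bases before the start, and each of the 7 enzymes had a box within 120 bases of it. In 6 of the 12 the box was followed by the letters CA, as in *Ebp*, *Sc5d* and *Lss*, against 17.2% of the 15858 boxes before the start in all windows. Distances are counted to the end of the box that is farther from the start. The boxes of *Cyp51*, *Msmo1* and *Dhcr7* lie inside the genes as GENCODE M21 draws them, with a start farther out, and those of *Lss*, *Nsdhl*, *Ebp* and *Sc5d* lie outside. The 2 boxes of *Nsdhl* after its start are not shown. *Msmo1* holds 3 boxes before the start, the most among the windows of the 7 enzymes, with a GC box beside the nearest of them.

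The GC box that Sp1 is known to bind, the letters GGGCGG on either strand, was also present in 7 of 7 enzymes, but 66.7% of the genes with a mean above 10 hold it too. The E-box CACGTG was found in 2 of the 7, *Sc5d* at 98 bases and *Dhcr7* at 164 bases before its start 2, against 11.6% of those genes. A sterol regulatory element written as TCACNCCAC, where N is any base, was found in 0 of the 7 enzymes and in 1.50% of the genes with a mean above 10. The shorter letters CACNCCA, which lie inside the longer ones, were found in 1 of the 7, *Msmo1*, against 20.9% of those genes. The absence of these letters says nothing of binding, since known elements vary in their letters and can lie outside the window. Among the mevalonate enzymes 5 of 6 with a window held a CCAAT box, among the other enzymes of the stretch 3 of 3, and among the SREBP machinery 4 of 7.

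**Figure D1:**
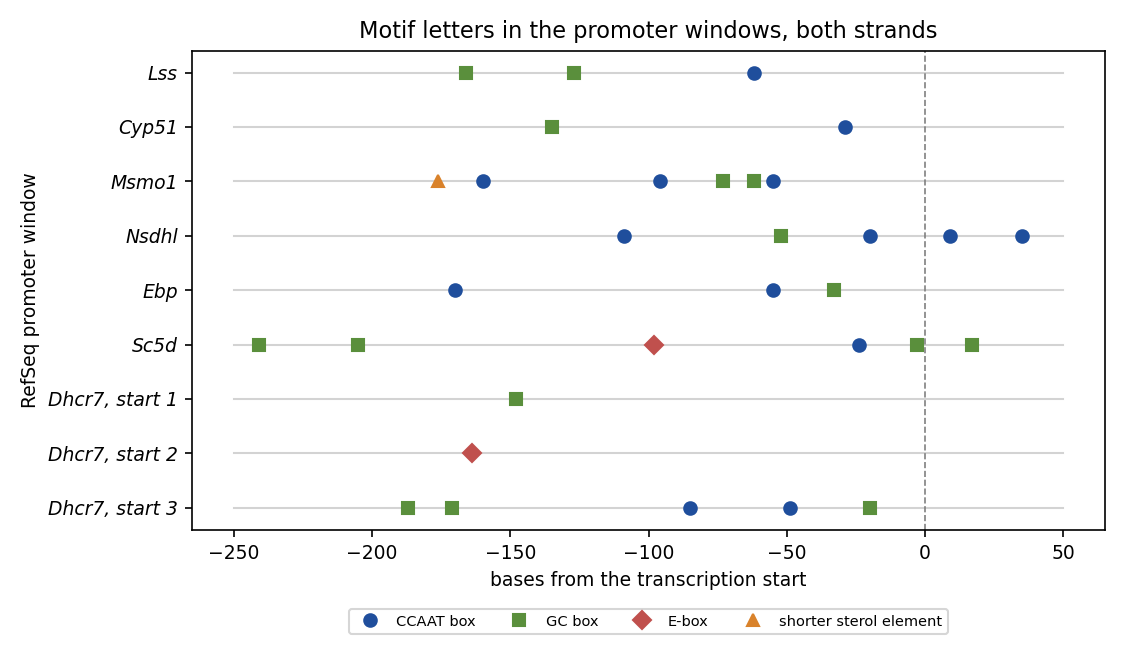
Position of motif letters on either strand in the RefSeq windows of 7 enzymes, as bases from the transcription start (dashed line). Points are matches to the CCAAT box, the GC box, the E-box and the shorter sterol element. A CCAAT box lies within 120 bases before a start of each enzyme, and windows 1 and 2 of *Dhcr7* hold none.

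All 9 enzymes had mean levels above the median gene of the table, with *Lss* nearest to it. The mean normalized counts of the table sum to 30045982, and 17678 genes have a mean above 0. The 9 enzymes together take 0.121% of this sum. Their median was 2906 normalized counts per gene. Because a long transcript collects more reads, the enzymes are set against other genes per kilobase (kb) of the longest annotated transcript, unless a value is named as a mean per gene. On that scale all 9 enzymes lay above the median of 53.8 for the 16954 genes with a level and a length, and 5 of the 9 lay above the 90th percentile of 835. Among the 12499 genes that also had a mean above 10, the median was 129 per kb and the 90th percentile 1209, and 3 of the 9 lay above the latter. In this set *Lss*, at 171 per kb, stood at percentile 56.9, close to the median. The median enzyme was at percentile 90.5, meaning that 90.5% of the genes had a lower level per kb, and the enzymes ranged from percentile 68.2 to 96.8.

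**Figure D2:**
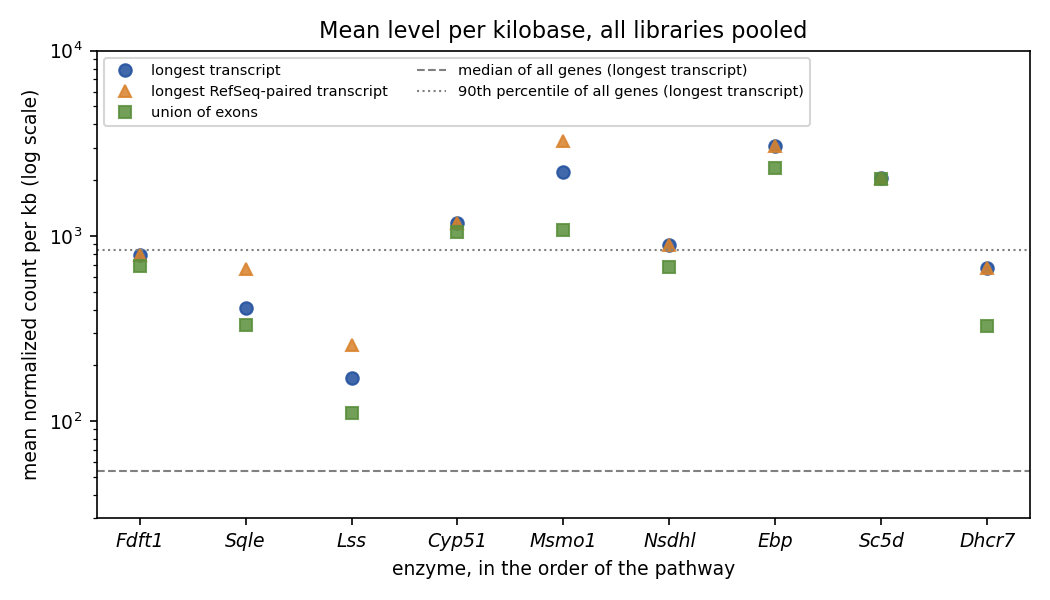
Mean normalized count per kb (log scale) of the 9 enzymes in pathway order, with WT and PAI-1 heterozygous libraries pooled. Symbols give 3 choices of gene length and no error is shown. *Lss* is lowest under each choice, and all points lie above the median of all genes at 53.8.

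Among the first enzymes of the stretch, *Sqle* and *Lss* lay in the lower part of the 9, and *Fdft1* stood near the middle. *Fdft1*, squalene synthase, had a mean of 2906 normalized counts and a level of 786 per kb. *Sqle*, squalene epoxidase, which adds oxygen to squalene and is a control point of the pathway, had a mean of 1828 and a level of 409 per kb. *Lss*, lanosterol synthase, which folds the epoxide into the first sterol, had a mean of 1195 and, with 171 per kb, the lowest level of the 9 enzymes on every scale used. *Lss* has a longest annotated transcript of 6992 bases, and the longest transcript paired with a RefSeq mRNA has 4667 bases. With the latter length its level was 256 per kb, which is again the lowest of the 9.

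The members that remove methyl groups from lanosterol had unequal levels. *Cyp51*, the cytochrome P450 that removes a methyl group from lanosterol, had a mean of 4622 normalized counts and a level of 1176 per kb. This was 6.88 times the level of *Lss* per kb of the longest transcript. Per kb of the RefSeq-paired transcript *Cyp51* again had 1176 and *Lss* 256. *Msmo1*, the methyl sterol oxidase, had a mean of 6612 and a level of 2227 per kb. *Nsdhl*, the dehydrogenase that acts next and removes the oxidized group, had a mean of 1937 and a level of 893 per kb, above *Fdft1* on this scale but below it per kb of all exons together, with 679 against 688. *Msmo1* was thus 2.49 times as abundant per kb as *Nsdhl*, its partner in the same reaction sequence. The level of *Msmo1* depended on the length assumed, with 3235 per kb for its RefSeq-paired transcript of 2044 bases and 1076 per kb for the 6144 bases of all its exons together.

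The enzymes that move, introduce or reduce double bonds differed among themselves. *Ebp*, the isomerase of the sterol ring, had a mean of 5344 normalized counts and, with 3066 per kb, the highest level of the 9 on this scale. *Sc5d*, lathosterol oxidase, which introduces the second ring double bond, had the highest mean per gene, 9877, and a level of 2063 per kb. *Dhcr7*, the reductase that makes cholesterol from its immediate precursor, had a mean of 1895 and a level of 673 per kb. *Ebp* was 17.9 times as abundant per kb of the longest transcript as *Lss*, which is the whole range of the 9 enzymes on this scale. The size of this ratio depended on the length assumed. Per kb of the RefSeq-paired transcript *Ebp* again had 3066 and *Lss* 256, and *Msmo1* was highest with 3235. Per kb of all exons together *Ebp* had 2313 and *Lss* 111.

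Per kb, the order from high to low was *Ebp*, *Msmo1*, *Sc5d*, *Cyp51*, *Nsdhl*, *Fdft1*, *Dhcr7*, *Sqle* and *Lss*. The steps between neighbours in this order ran from 1.08 times, between *Msmo1* and *Sc5d*, to 2.39 times, between *Sqle* and *Lss*. *Cyp51* kept the fourth place and *Lss* the ninth under all 3 choices of length, *Msmo1* moved by 2 places and each of the others by 1. *Ebp*, *Msmo1* and *Sc5d* held the 3 highest places throughout. They account for 26.7%, 19.4% and 18.0% of the summed level per kb of the 9 enzymes.

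**Figure D3:**
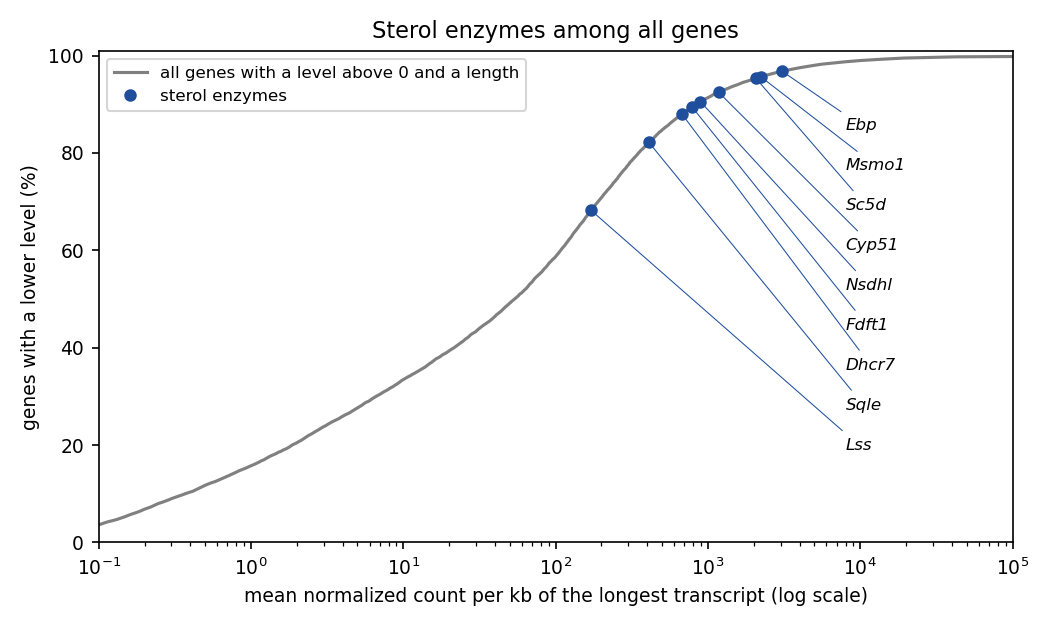
Percent of genes with a lower level (vertical axis) against the mean normalized count per kb of the longest transcript (log scale) for the 16954 genes with a level and a length (grey line), with the 9 enzymes as points. The enzymes run from *Lss* at percentile 68.2 to *Ebp* at 96.8.

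The 9 enzymes stand on 8 chromosomes in the GENCODE M21 annotation of GRCm38, the assembly named mm10. *Fdft1* lies on the minus strand of chr14:63145150-63179578, *Sqle* on the plus strand of chr15:59315077-59331192 and *Lss* on the plus strand of chr10:76531588-76557138. *Cyp51* lies on the minus strand of chr5:4081145-4104746 and *Msmo1* on the minus strand of chr8:64718139-64733792. Both *Ebp*, on the minus strand of chrX:8185329-8193512, and *Nsdhl*, on the plus strand of chrX:72918557-72958514, are X-linked. *Sc5d* lies on the minus strand of chr9:42251595-42264256 and *Dhcr7* on the plus strand of chr7:143823145-143848410. The genes therefore form no cluster, and the longest transcripts run from 1743 bases in *Ebp* to 6992 bases in *Lss*. These longest transcripts hold from 2 exons in *Msmo1* to 22 in *Lss*. For *Msmo1*, with 7 annotated transcripts, this is the transcript of 2969 bases rather than the RefSeq-paired transcript of 2044 bases.

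The values of 3 enzymes could include reads of an overlapping gene. *Fdft1* shares 774 exonic bases, or 18.3% of its exonic sequence, with *Ctsb*, the lysosomal protease cathepsin B, which runs toward it on the other strand. *Ctsb* had a mean per gene of 15827 normalized counts and a level of 3337 per kb, against 2906 and 786 for *Fdft1*. *Cyp51* shares 166 exonic bases (3.76% of its exonic sequence) with *Akap9*, a scaffold protein gene on the other strand with a mean of 1409, and *Lss* shares 381 (3.53%) with the antisense gene *4930483K19Rik*, which had a mean of 0.956. Whether reads were counted by strand is not given in the sources used here, so the levels of these 3 enzymes are uncertain, that of *Fdft1* most. The other 6 enzymes share no exonic base with another annotated gene.

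**Figure D4:**
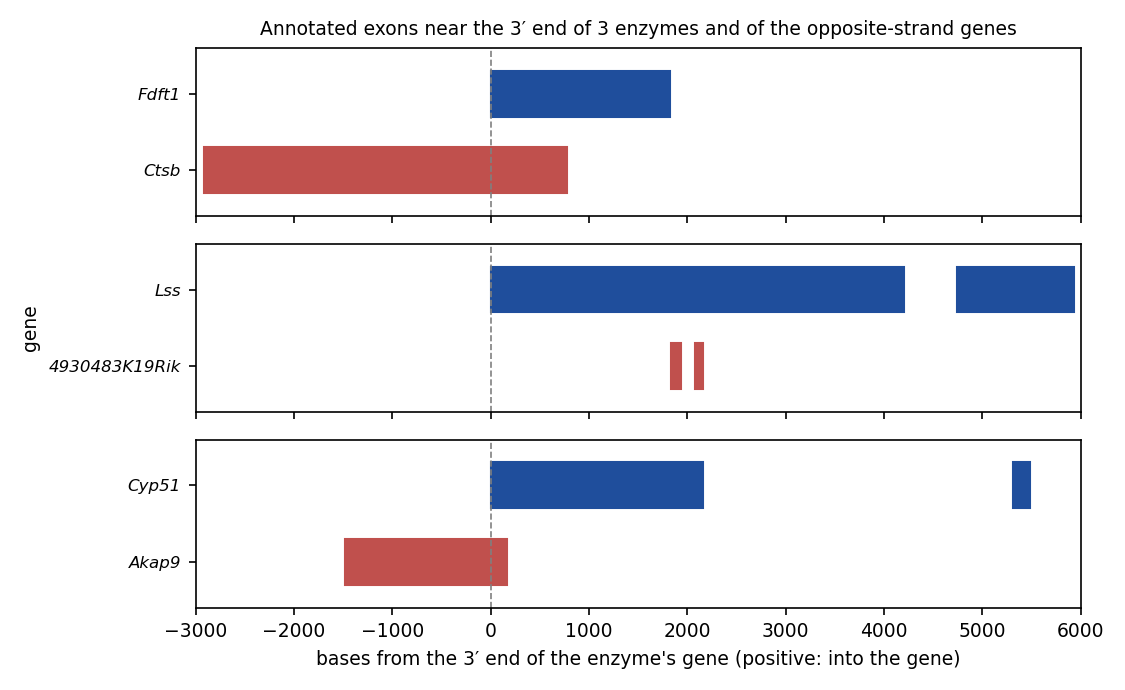
Annotated exons (boxes) of *Fdft1*, *Lss* and *Cyp51* (blue) and of the genes on the other strand that share exonic bases with them (red), as distance in bases from the 3′ end of the enzyme's gene. *Ctsb* reaches 774 bases into *Fdft1* and *Akap9* 166 bases into *Cyp51*.

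Near copies elsewhere in the transcriptome were sought with the longest RefSeq-paired transcript of each enzyme. No stretch of at least 75 aligned bases at 95% identity was found in another gene's transcript for 5 enzymes, *Sqle*, *Msmo1*, *Nsdhl*, *Ebp* and *Dhcr7*. *Fdft1* matched the processed pseudogene *Gm6781* over 1249 bases at 97.4% identity. Together with *Ctsb*, such matches covered 54.7% of the 3698 bases of the *Fdft1* transcript, so its reads could also have been shared with this copy. No level is listed for *Gm6781*, and how reads that match both were counted was not tested. *Sc5d* matched *Tirap* over 81 bases, and the matches of *Lss* and *Cyp51* were those with their overlapping genes.

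The route to cholesterol holds further enzymes, which were listed with earlier results of these data known. Levels of 3 other enzymes of the stretch after squalene are given here, with a median of 608 per kb. *Hsd17b7*, the reductase that completes the removal of methyl groups after *Msmo1* and *Nsdhl*, stood at this median, and *Msmo1* was 3.66 times and *Nsdhl* 1.47 times as abundant per kb. The reduction that follows *Cyp51* can be made by the products of *Tm7sf2* or *Lbr*. *Tm7sf2* had 782 per kb and *Lbr*, which also anchors lamins at the nuclear envelope, 89.2 per kb, a ratio of 8.77. The size of this ratio depended on the length assumed. Per kb of the RefSeq-paired transcript *Tm7sf2* had 1640 and *Lbr* again 89.2. Per kb of the longest transcript *Lbr* was the lowest of the 19 enzymes of the route described here, with *Idi1* close to it at 90.3. By mean per gene *Idi1* was the lowest, with 273 normalized counts against 313 for *Lbr*.

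The mevalonate enzymes before squalene had a median of 471 per kb over the 7 genes described here, against 893 over the 9 enzymes after them and 53.8 over all genes. *Hmgcs1*, which makes HMG-CoA, was highest of these with 2290 per kb, and *Idi1*, the isomerase of isopentenyl diphosphate, lowest with 90.3 per kb. *Fdps*, which makes the farnesyl diphosphate used by squalene synthase, had 876 per kb, and *Fdft1* was at 0.897 times that level. Which of them was higher depended on the length assumed. Per kb of all exons together *Fdft1* had 688 and *Fdps* 615, and per kb of the RefSeq-paired transcript 786 and 1872.

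The SREBP machinery had a median of 982 per kb over 7 genes. *Srebf2*, which encodes the SREBP form that acts mainly on cholesterol genes, had 323 per kb and *Srebf1*, whose product acts mainly on fatty acid genes, 982 per kb. *Scap*, the escort of SREBPs, had 1065 per kb. *Insig2* had 5544 per kb and *Insig1* 2311 per kb, both above the median of the 9 enzymes. The proteases that release SREBPs, *Mbtps1* and *Mbtps2*, had 290 and 77.6 per kb. These lists were not tested against each other, since no error of the means was used, and their exons were not searched for overlaps.

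**Figure D5:**
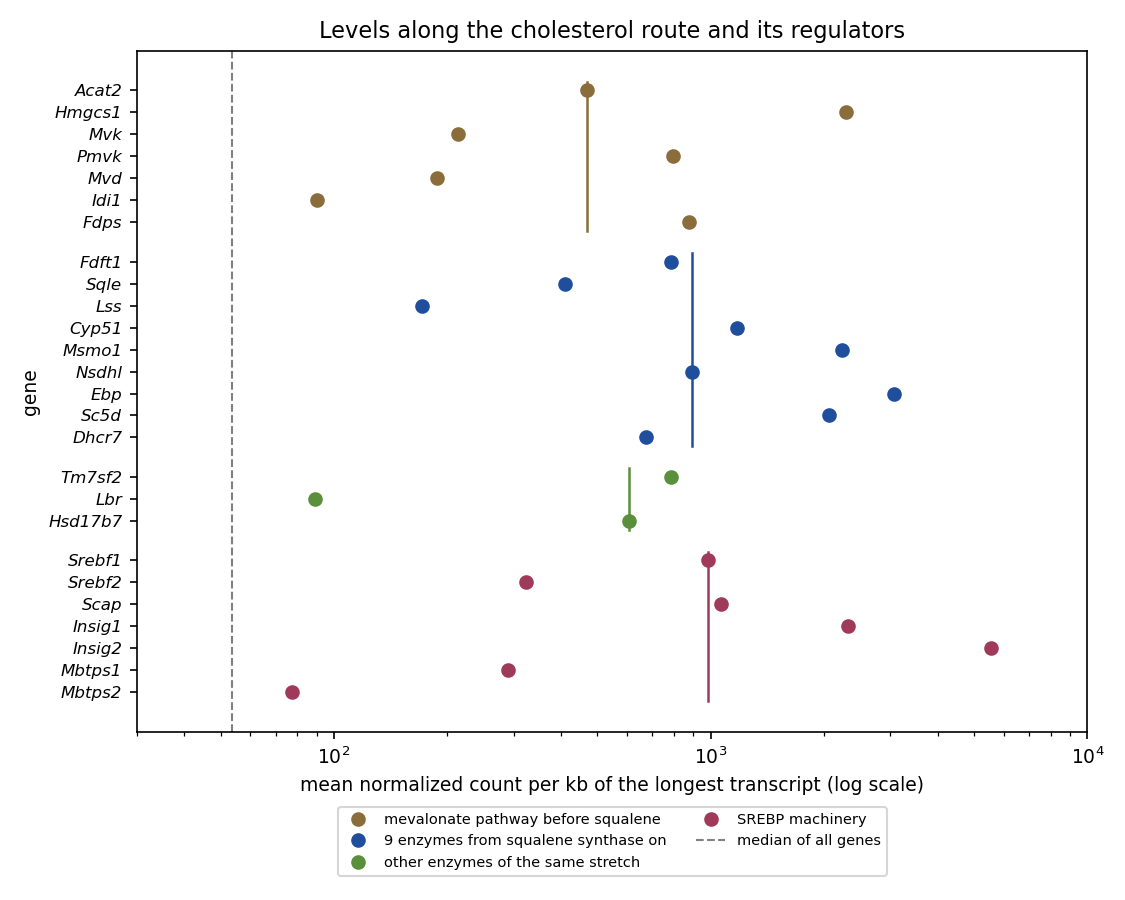
Mean normalized count per kb of the longest transcript (log scale) for the mevalonate enzymes, the 9 enzymes, the other enzymes of the same stretch and the SREBP machinery. Points are genes, coloured lines are list medians (471, 893, 608 and 982) and the dashed line is the median of all genes (53.8).

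The libraries carried the transcripts of liver tissue. *Alb*, serum albumin, had the highest mean of all genes, and the 7 hepatocyte markers took 9.80% of the summed counts with levels between 13233 and 1059760 per kb. The medians of markers of other liver cells were 380 per kb for Kupffer cells (6 genes), 155 for endothelial cells (5 genes), 89.4 for stellate cells (4 genes) and 40.3 for cholangiocytes (4 genes). Of 3 red cell genes 2 are listed at 0 and *Alas2* had 1049 per kb. Whether the listed 0 means that these mRNAs were absent was not tested. The share of each sterol enzyme's mRNA that came from hepatocytes was not tested, and in bulk tissue a smaller number of cells of a type and less mRNA per cell cannot be told apart.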

How the data were processed

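Liver mRNA of 3 WT and 3 PAI-1 heterozygous mice was sequenced as single-end reads, which the authors aligned to mm10 with STAR and compared with DESeq2 in the RNA Express application. The submitters' processing notes also name HOMER. Versions, annotation and strand setting are not given in the sources used here. The signal used is the authors' deposited mean normalized count, the counts divided by size factors and averaged over all libraries. The deposited fold changes, standard errors, statistics and p-values of the authors' comparison were not used. A second table holds whole-number counts in 6 columns headed by animal numbers that match no label. These were not used, so the planned edgeR and DESeq2 comparisons, with every test between genotypes, were not run. Depth per library and the spread between animals were therefore not computed here, and the sum of the mean normalized counts, 30045982, gives no interval.

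Levels were divided by transcript length from GENCODE M21, matched by symbol for 95.9% of genes with a mean above 0, and ranked. Length was the longest transcript, the longest RefSeq-paired transcript or the union of exons. Motifs were searched by exact letters on both strands of RefSeq windows, and near copies with megablast (BLAST 2.17.0) against all GENCODE transcripts, at least 75 aligned bases and 95% identity. Python 3.11.15, NumPy 2.4.6, pandas 2.3.3 and Matplotlib 3.10.9 were used. Ranking, motif search and overlaps were tested on simulated data. The genes named are the 9 enzymes, the listed genes of the route and its regulators, and genes that share sequence with an enzyme. Some listed genes are not reported here and were left out of the list medians. Members and lists were chosen with earlier results of these data known. The near-copy search, the letters after the CCAAT box the ranking per kb among genes with a mean above 10 and the set without overlapping enzymes were chosen after the data were seen.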

Additional observations from a re-analysis of the deposited data

How the results depend on the processing

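The median percentile of the 9 enzymes was 91.9 per gene among all genes with a mean above 0. It was 90.5 per kb of the longest transcript, 90.7 per kb of the union of exons, 88.7 per kb of the RefSeq-paired transcript, 88.9 among genes with a mean above 10, 87.2 per kb of the longest transcript among those genes and 91.7 without the 3 enzymes that share exons with another gene. Single enzymes lay between percentile 56.9 and 97.7 under these settings, and 37 of 45 single-enzyme values were lower than the enzyme's value per gene. The 37 include the values per gene among genes with a mean above 10, which could only be lower, because that set drops only low genes. The number of enzymes above the 90th percentile per kb was 5 with the longest transcript, 6 with the union of exons, 4 with the RefSeq-paired transcript and 3 with the longest transcript among genes with a mean above 10. The ranking with the RefSeq-paired transcript covered 15502 genes, against 16954 with the longest transcript. Its 90th percentile was 1035 per kb, against 835. *Nsdhl* had 893 per kb with both lengths, so its lower percentile reflects the genes it was set against. *Lss* moved most, by 24.1 percentile points, from 81.0 per gene to 56.9 per kb among genes with a mean above 10. The count of enzymes with a sterol regulatory element was 0 with the full letters and 1 with the shorter core. Comparisons of the genotypes by edgeR and DESeq2, with other scalings, without the filter or without a replicate, were not run, because no column of counts was assigned to a genotype. No paired analysis was possible because the columns carry no replicate number and the result comes from no test. Since the counts per animal were not used, the depth and the spread behind each mean are not given here.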
